A study of Saccharomyces cerevisiae with 6 samples.

Results

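The small-subunit ribosomal protein genes of Saccharomyces cerevisiae were followed through a time course of Rap1 ChIP-seq, in which chromatin bound by the transcription factor Rap1 is recovered with an antibody and sequenced. The members were the protein-coding genes of the R64 annotation whose symbol begins with RPS and a digit, 56 of 6002 protein-coding genes on the nuclear chromosomes. They encode 32 proteins of the 40S ribosomal subunit, 24 of them from a pair of gene copies (A and B) and 8 from a single gene. For each gene, peaks were taken whose summit, the position of highest signal, lay inside the coding span or up to 1000 bp upstream of the coding start.

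Rap1 is an essential DNA-binding protein that marks most ribosomal protein gene promoters, where it brings in the coactivators Fhl1 and Ifh1. It also binds telomeres and the silent mating loci. Ribosomal protein genes are among the most heavily transcribed genes of growing yeast, and their transcription is raised by glucose. The 40S subunit binds mRNA and carries the decoding centre, with a head and a body joined by a neck, and a platform on the body where mRNA leaves.

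All samples came from strain UKY403, a histone H4 shutoff strain in which H4 is made on galactose medium and its synthesis stops on dextrose. Galactose-grown cells were collected 0, 2 and 4 h after transfer to dextrose, 6 samples in all, as 2 independent time courses per time point. No H4-intact control was analysed here, so the loss of H4 and the change of sugar cannot be told apart. One peak list per time was analysed and held no values per replicate, so no spread between replicates could be given and no test compared the times. The question the series addresses is whether Rap1 reaches sites inside genes when nucleosomes are depleted. For the RPS genes this divides into what became of the promoter sites and what appeared inside the coding spans.

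The lists held 1212, 2438 and 4073 peaks at 0, 2 and 4 h, from 983197, 1483679 and 2327099 tags once duplicates had been dropped. The deeper lists reach weaker sites, so a peak that is listed only later may have lain under the limit of the 0 h list. Fold enrichment is the authors' own value per peak, the summit height over the local background of the same list, and is compared only within a list. Summit height is a count of overlapping extended tags, is not scaled for depth, and cannot pass 292.

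Rap1 was listed upstream of nearly every RPS gene before H4 synthesis was stopped and stayed there. An upstream summit was present at 53 of 56 genes at 0 h, against 21.7% of all protein-coding genes. At 2 h the count was again 53, against 28.2% of all genes, and at 4 h it was 54, against 37.6%. The large-subunit genes (RPL and RPP, 81 genes) gave 77 at each of the times. All 53 strongest 0 h peaks of RPS genes overlapped a peak at 2 h and at 4 h, while among the 1249 other genes with an upstream summit at 0 h, 1083 (86.7%) did so at 2 h and 1100 (88.1%) at 4 h. The sets were not matched for strength. At 0 h the median height was 283 for the RPS peaks and 82 for those of the other genes, with median folds of 14.3 and 5.78. Full retention was shared with the large-subunit genes, where 77 of 77 peaks overlapped a peak at each later time. The 53 genes had 53 distinct peaks, so no RPS gene shared its strongest peak with another RPS gene.

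The summits stood at varied distances from the coding start, with quartiles of 259 and 433 bp at 0 h. The median distance was 346, 352 and 347 bp in the 0, 2 and 4 h lists. At 0 h the range was 200 to 782 bp and no RPS summit lay closer than 200 bp, whereas 225 of the 1302 upstream summits over all genes (17.3%) did. RPL genes had a like spacing, with a median of 336 bp at 0 h and 3 of 77 summits (3.90%) nearer than 200 bp. The nearest were at RPS10B, which encodes a protein of the head, with summits 200, 197 and 197 bp upstream at 0, 2 and 4 h. RPS30A followed with 201, 208 and 208 bp, and RPS27A with 203, 204 and 203 bp. These 3 genes thus had their summit close to the inner edge in every list.

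**Figure D1:**
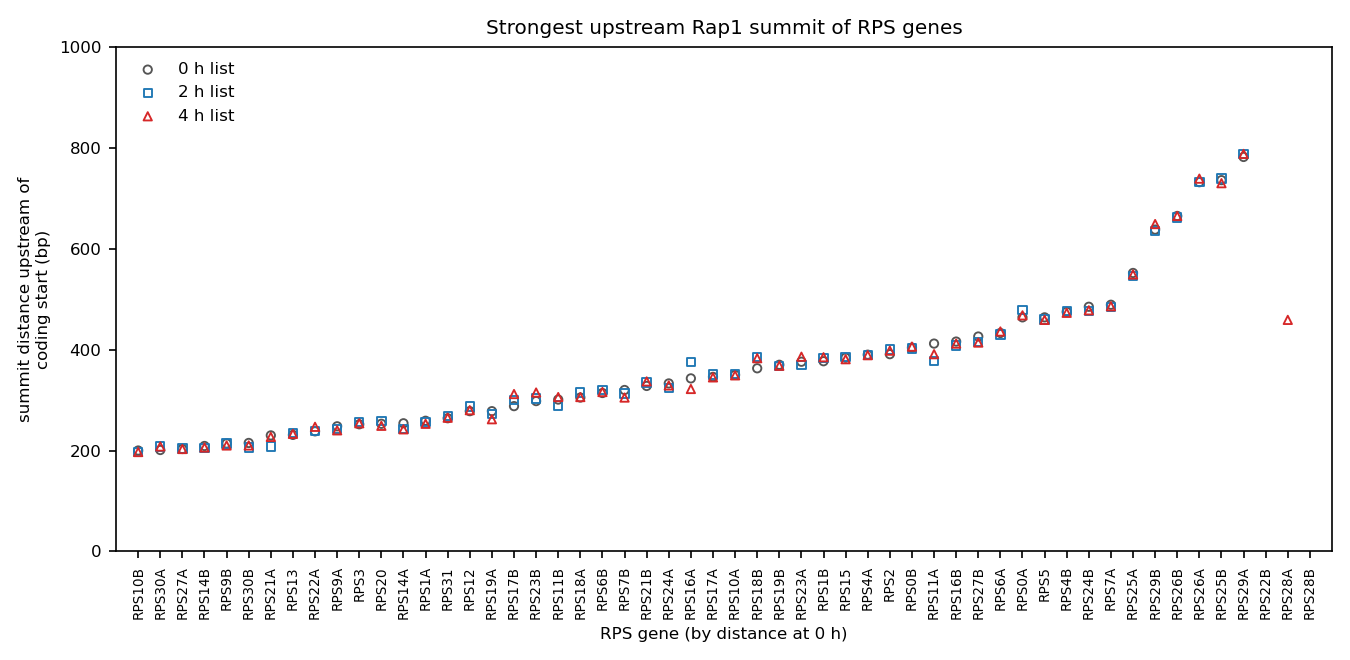
Distance in bp from the coding start to the strongest upstream Rap1 summit (vertical axis) for the RPS genes named on the horizontal axis, ordered by the distance at 0 h, with 1 marker per peak list; 2 members are not shown. The 3 markers of a gene nearly coincide, from 200 bp at RPS10B to 782 bp at RPS29A at 0 h, and RPS22B and RPS28B have no marker while RPS28A has 1, from the 4 h list.

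The farthest summit belonged to RPS29A, another head protein gene, at 782, 788 and 788 bp. RPS25B had its strongest summit at 736, 739 and 730 bp. Among the 8 RPS genes with a strongest summit beyond 500 bp at 0 h, not all of which are named here, were both copies of RPS25, RPS26 and RPS29. Such far summits were not particular to RPS genes. Over all genes 437 of 1302 lay beyond 500 bp at 0 h, and in RPL genes 10 of 77. The same 8 RPS genes lay beyond 500 bp at 2 and 4 h. In RPS26A the strongest summit was at 732, 733 and 739 bp, and in RPS29B at 638, 635 and 649 bp, so the long spacing was shared by both copies of each of these proteins. Over all 22 pairs with an upstream summit in both copies, the copies differed in distance by a median of 88.5 bp at 0 h, with a range of 14 to 223 bp. The median over the 1356 pairs of RPS genes for different proteins was 126.5 bp.

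The positions were kept to within a few base pairs. The strongest upstream summit of an RPS gene moved by a median of 6 bp between 0 and 2 h and of 5 bp between 0 and 4 h. Of 53 genes, 49 at 2 h and 50 at 4 h had moved by 20 bp or less. In the other genes with a strongest upstream summit at both times, the median was 11 bp at 2 h (1095 genes) and 10 bp at 4 h (1100 genes), and 70.0% and 68.5% had moved by 20 bp or less. In RPL genes, which are among these, the medians were 3 and 5 bp, and 92.2% and 93.5% had moved by 20 bp or less. The other genes were not matched to the RPS genes for peak strength. The 3 largest movements of RPS genes at 2 h were in RPS11A, from 412 to 377 bp, RPS16A, from 343 to 375 bp, and RPS18B, from 363 to 386 bp. At 4 h the largest was in RPS17B, from 288 to 312 bp, followed by RPS11A and RPS16A, which had each moved by 21 bp. The peak heights of RPS16A were 292 in all lists, at the ceiling, while those of RPS11A were 240, 257 and 256. Whether the ceiling affects the summit position was not tested. The movements had no common direction: 26 summits were farther upstream at 2 h than at 0 h and 25 were nearer, with 23 and 28 at 4 h.

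**Figure D2:**
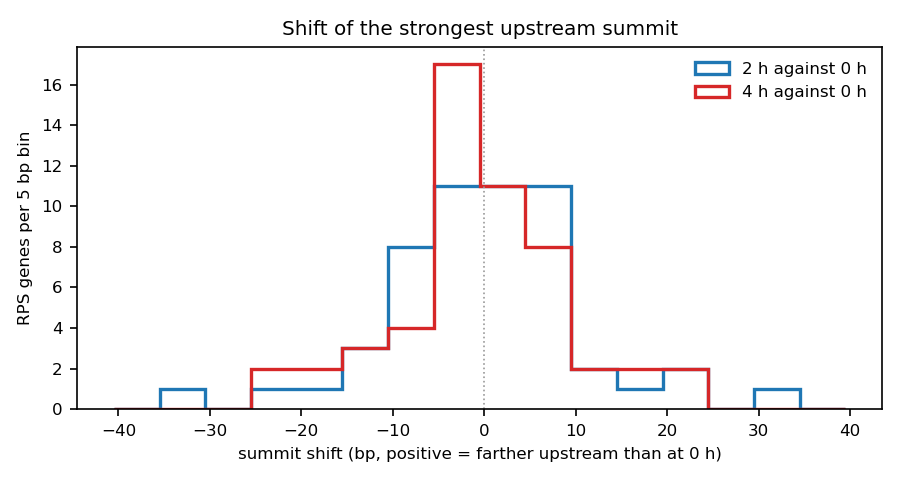
Shift in bp of the strongest upstream summit of each of 53 RPS genes from the 0 h list to the 2 h list (blue) and the 4 h list (red), as a histogram with 5 bp bins (vertical axis, genes). Positive values are farther from the coding start, and both distributions are centred near 0 with no shift beyond 35 bp.

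By fold enrichment the RPS promoter peaks ranked among the stronger peaks of each list. The strongest upstream peaks of RPS genes had medians of 14.3, 10.9 and 7.47 in the 0, 2 and 4 h lists, where all peaks had medians of 5.11, 3.51 and 3.09. At 0 h 42 of 53 were in the highest 25% of their list, at 2 h 53 of 53 and at 4 h 52 of 54. Over all genes 399 of 1302, 652 of 1695 and 841 of 2257 strongest upstream peaks were. RPL genes were alike, with medians of 14.5, 11.6 and 8.11 and with 61, 74 and 74 of 77 in the highest 25%. The fall of the fold values from list to list is not read as a measure of binding. Many heights were near the ceiling while the background rose with depth. RPS21A was far below the ceiling, with heights of 133, 132 and 127, and its folds of 9.21, 6.67 and 4.02 fell as well. What the fall reflects was not tested. A height of at least 280 was reached by 30, 42 and 36 of the RPS peaks, and in 38, 53 and 48 of 77 RPL genes. Over all genes it was reached by 11, 13 and 9.97% of the strongest upstream peaks.

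**Figure D3:**
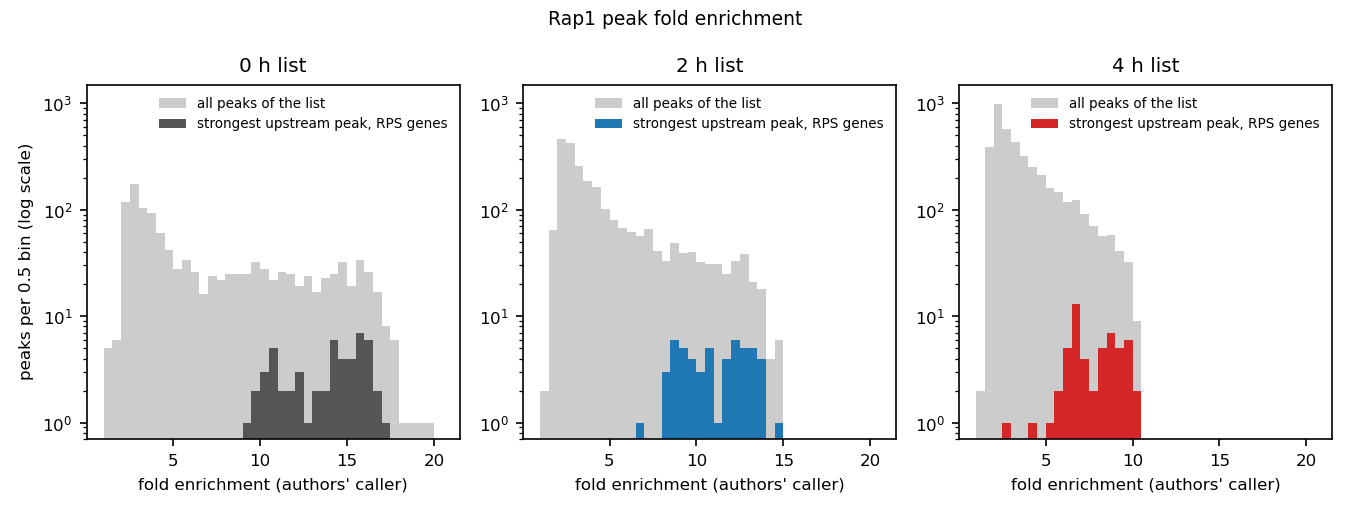
Number of peaks (vertical axis, log scale) by the authors' fold enrichment (horizontal axis) in the 0, 2 and 4 h lists, for all peaks in grey and for the strongest upstream peak of each RPS gene in colour. The RPS peaks lie in the upper part of each list, with medians of 14.3, 10.9 and 7.47.

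The highest RPS peak at 0 h was that of RPS10A on chromosome XV, 866498 to 867024 (R64 coordinates, as for all positions given), with a fold enrichment of 17.1 and a height of 291. RPS1A, which encodes a protein beside the mRNA exit channel, came next (16.9, height 290), then RPS27A (16.6, height 282), RPS23A (16.4, height 283), whose product contributes to the decoding centre, and RPS1B (16.3, height 289). At 2 h the order was led by RPS29A, with a peak on chromosome XII at 897632 to 898129 and a fold of 14.6. It was followed by RPS23A and RPS1A (13.9 and 13.8), RPS0B (13.7), whose product is needed for late maturation of the subunit, and the head protein gene RPS20 (13.6). At 4 h RPS0B and RPS20 stood at the highest value of the entire list (10.1 each), both with heights of 292, a value also reached among the RPL genes. RPS29A (9.98), RPS23A (9.78) and RPS1B (9.77) followed. The heights of the peaks named here ran from 281 to 292, so the order among them follows mainly the background by which the height is divided.

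The lower end was more constant. RPS21A had the lowest promoter fold of all RPS genes at 0 and 2 h (9.21 and 6.67) and the second lowest at 4 h (4.02). Its heights of 133, 132 and 127 were far from the ceiling, as were those of RPS3, which encodes a head protein at the mRNA entry channel, with heights of 152, 193 and 196 and folds of 9.75, 8.41 and 5.39. RPS18B was also among the lowest 3 at 0 and 2 h (9.51 and 8.26), but with heights of 254 and 275. RPS21A and RPS3 were thus low in signal, and RPS18B was low in ratio beside a tall summit.

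The local background that the caller used can be read from height and fold enrichment, and it differed among RPS genes. At 0 h it ranged from 13.5 extended tags at RPS21A to 27, against a genome mean of 11.8. At 0 h 14 of 53 RPS summits had at least 1 other peak of height 200 or more within 5000 bp. For these the median background was 25 and the median fold 10.7, with a median height of 285. The other 39 had a median background of 17.1, a median fold of 15.1 and nearly the same median height, 283. RPS18B and RPS17A, which flank the same stretch of chromosome XIII, were in the first set, with backgrounds of 25.8 and 24.3. The same ordering held at 2 h (median fold 9.04 for 15 genes against 12.1 for 38) and at 4 h (6.67 for 25 against 8.83 for 29). The median heights of these sets were 291 and 289 at 2 h and 287 in both at 4 h. The local background could be taken from 10000 bp, so a strong peak close by raises the divisor. At like heights the lower fold thus follows from how fold is defined and is not a separate result. The height limit was not scaled for depth, so more peaks pass it in the deeper lists.

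**Figure D4:**
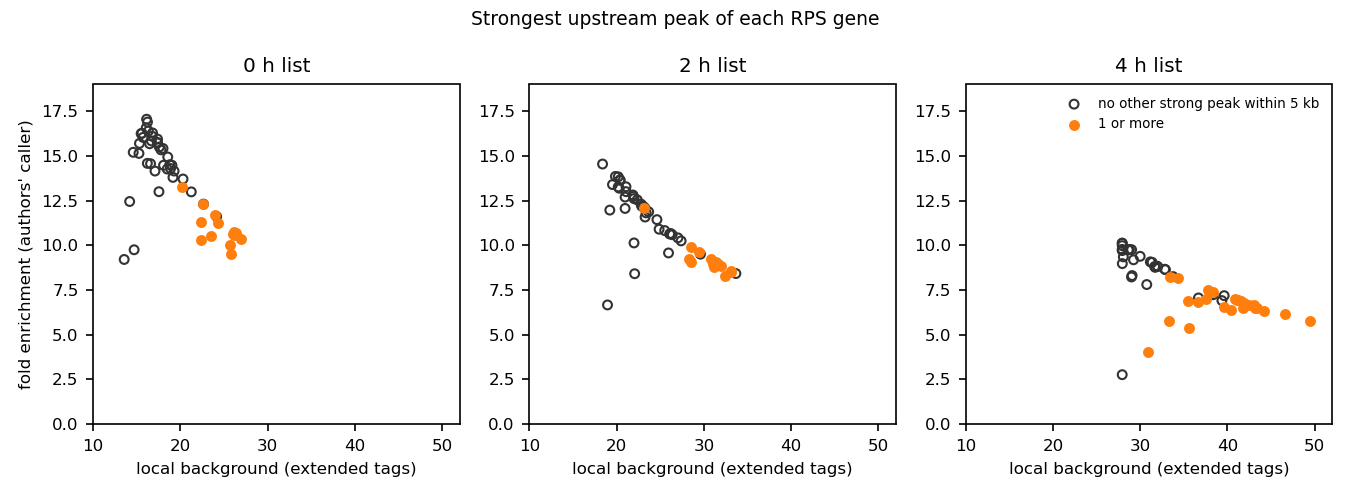
Fold enrichment by the authors' caller (vertical axis) against the local background in extended tags (horizontal axis) for the strongest upstream peak of each RPS gene in the 0, 2 and 4 h lists. Filled orange points have at least 1 other peak of height 200 or more within 5 kb and sit at a higher background and mostly lower fold than the open points. The background was computed from height and fold, so the axes are not independent.

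RPS22B, RPS28A and RPS28B had no upstream summit at 0 or 2 h. Abf1, another general regulatory factor, is known from other work to bind upstream of these genes. It was not measured here. RPS22B lies on chromosome XII at 856442 to 857317, and its nearest upstream summits were 37440, 8089 and 4451 bp away at 0, 2 and 4 h. Its copy RPS22A had an upstream peak in each list, with folds of 10.6, 8.86 and 6.52. The pair was the only one at 0 h in which a single copy had a summit.

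RPS28B, on chromosome XII at 673131 to 673334, had its nearest upstream summits 14608, 7996 and 8076 bp away. A strong peak did lie 890 bp past its coding start at 0 h (fold 14.6, height 249), beyond the end of its 204 bp span, and was assigned by position to YLR264C-A. It was present at 2 and 4 h at 893 and 901 bp. RPS28A, on chromosome XV at 648804 to 649007, gained a summit 459 bp upstream in the 4 h list. That peak had a fold of 2.76 and a height of 79, and its summit lay inside the coding span of GLN4, the glutaminyl-tRNA synthetase gene. It is the whole difference between 53 and 54 genes, and it does not meet a fold of at least 3. The counts of pairs with an upstream summit in both copies were 22 of 24 in each list.

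For each RPS promoter peak the next protein-coding gene on the far side was taken. At 0 h the gene beyond the summit was divergent in 33 of 53 cases and tandem in 19. RPS30B was the remaining case, with its summit inside the span of FYV12, a reading frame on the opposite strand. In 31 cases the neighbour's edge was nearer to the summit than the RPS coding start was. Neighbours were not counted for other genes, so these counts are not read as particular to RPS genes. For the 33 divergent cases the median distance was 377 bp to the RPS gene and 393 bp to the neighbour. A peak between divergent starts cannot be assigned to one of them by position.

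Ribosomal protein genes faced each other across 4 of these peaks. RPS16A and RPL13B were divided by a peak with its summit 343 bp from RPS16A and 378 bp from RPL13B, and the other copies, RPS16B and RPL13A, by a peak 416 and 219 bp away. RPS15 and RPP2A, a stalk protein gene, shared another, as did RPS22A and RPL39. The RPS29B peak (folds 16.3, 13 and 9.19) was also the upstream peak of TSR1, which encodes an assembly factor of the 40S subunit. The RPS1A peak lay after the end of SIR3, a silencing gene.

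By place in the subunit, the promoter peaks of head and of body and platform proteins overlapped widely. Of 22 head genes 20 had an upstream summit at 0 h, with a median fold of 12.8 and a range of 9.51 to 17.1. Of 34 body and platform genes 33 had one, with a median of 14.5 and a range of 9.21 to 16.9. Median distances were 348 and 333 bp. These ranges cover each other nearly in full.

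Inside the coding spans no RPS gene had a Rap1 summit at 0 h, when 4.13% of all protein-coding genes had one. At 2 h summits were listed in 7 of 56 genes (12.5%), against 21% of all genes, and at 4 h in 12 (21.4%), against 37.1%. None of these peaks overlapped a 0 h peak. In RPL genes the counts were 1, 5 and 22 of 81 at 0, 2 and 4 h (1.23, 6.17 and 27.2%), also under the shares of all genes. RPS spans are short, with a median of 766.5 bp against 1200 bp over all genes. Per kb of coding span RPS genes held 0.222 summits at 2 h and 0.296 at 4 h, and all genes held 0.165 and 0.337. Read per length, the RPS density was above that of all genes at 2 h and below it at 4 h, on 9 and 12 summits, so the lower share of genes is not matched by a uniformly lower density.

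The highest coding peak at 4 h lay in RPS16B, at the far end of the gene. Its peak on chromosome IV, 306793 to 307142, had a fold of 5.55 and a height of 164, with the summit 34 bp before the coding end. At 2 h it was listed 37 bp before the end (3.96, height 93). RPS16A had no coding summit in any list, so the copies differed.

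RPS4A and RPS4B, which encode a body protein, had coding peaks in both copies. At 2 h RPS4B had summits 725 and 337 bp before its coding end (folds 3.32 and 4.22), and RPS4A had them 715 and 337 bp before its end (3.59 and 3.17). The inner positions coincided between the copies to the base pair, and the outer ones to 10 bp. At 4 h each copy had 1 long peak that covered both 2 h peaks, 710 bp in RPS4B (5.32) and 725 bp in RPS4A (4.72). Their summits were 696 and 712 bp before the end.

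A like match was seen in RPS11A and RPS11B at 4 h, with summits 414 and 430 bp before the coding end and folds of 3.81 and 3.95. At 2 h they stood at 425 and 381 bp (2.73 and 2.57). RPS23A and RPS23B had weak summits at 4 h, 36 and 75 bp before the end (2.04 and 1.91). Gene copies of this kind share coding sequence, and the sources used here do not say where tags that match both copies were placed. Peaks in both copies of a pair may therefore rest on the same tags and do not count as independent sites. At 2 h both copies had a coding summit in 2 pairs and a single copy in 2 pairs, and at 4 h in 3 and 4 pairs.

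RPS2, a gene without a second copy whose product lines the mRNA entry channel, held a coding peak near its start. The summit was 113 bp after the coding start at 2 h (2.89, height 77) and 117 bp at 4 h (3.55). RPS21A had a single weak summit at 2 h, 119 bp after the start, with a fold of 1.92 and a height of 37. At 4 h the promoter peak of RPS21A ran to 551875, past that position, and no separate summit was listed in the span.

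The other coding peaks at 4 h were weaker and mostly late in the gene. RPS27A had one 51 bp before its end (2.60), RPS1B one at 87 bp (2.43) and RPS31, which encodes a fusion of ubiquitin to a head protein, one at 79 bp (2.32). RPS24B had one 344 bp before its end (1.97). Of the 12 coding summits at 4 h, 6 lay within 100 bp of the coding end, against 7.20% of the 2985 coding summits over all genes. The 6 include the weak summits of RPS23A and RPS23B, which may rest on the same tags. At 2 h it was 1 of 9, against 7.92% of 1464 over all genes. RPS spans are shorter, so a given distance is a larger part of the span, and RPL genes had 3 of 24 at 4 h. The position of the summits relative to the gene that follows was not examined.

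**Figure D5:**
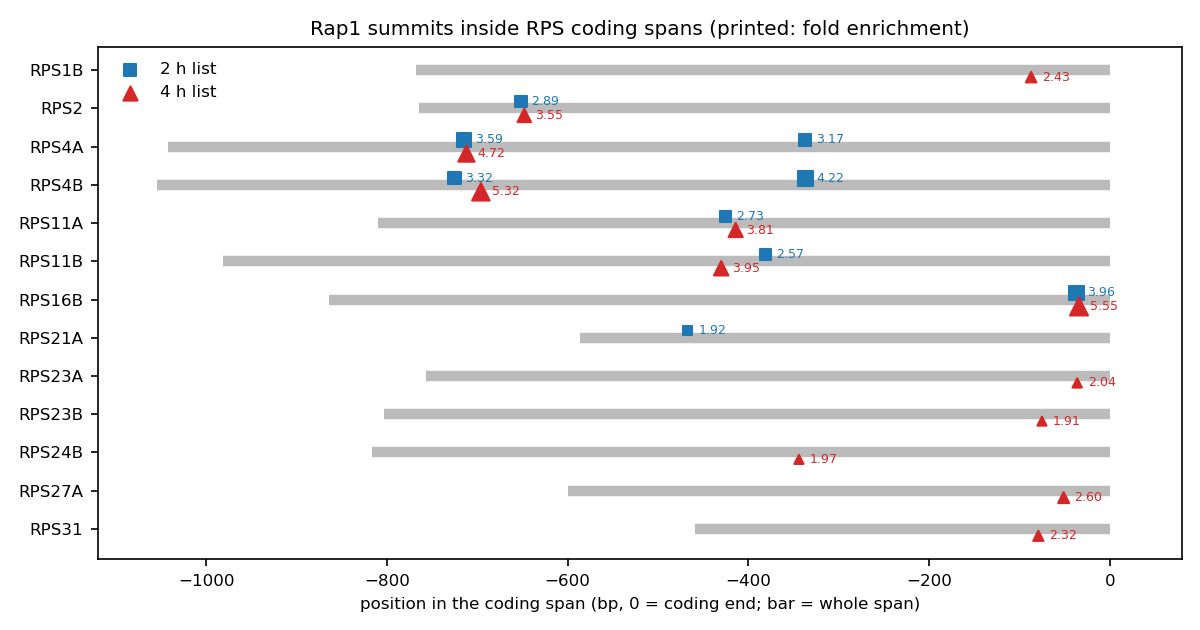
Rap1 summits inside RPS coding spans in the 2 h list (blue squares) and the 4 h list (red triangles), with position in bp before the coding end on the horizontal axis, the gene on the vertical axis and grey bars for the whole spans. Marker size and the printed number give the authors' fold enrichment, the highest being 5.55 in RPS16B, and the summits of RPS4A and RPS4B stand at matching places.

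With heights and backgrounds divided by the ratio of kept tags to the 0 h list (1.51 at 2 h and 2.37 at 4 h), 8 of the 9 coding peaks at 2 h and 9 of the 12 at 4 h still reached the p of the weakest 0 h peak. Among the 1212 highest peaks of each list by -log10 q, as many as the 0 h list holds, coding summits were in 3 RPS genes at 2 h and 3 at 4 h. The shares of all genes under this cut and under the scaled p were not computed. These counts are therefore not read as particular to RPS genes. By the scaled p, the coding peak that did not reach that of the weakest 0 h peak at 2 h was in RPS21A, and those at 4 h were in RPS23A, RPS23B and RPS24B. The peaks of RPS2, RPS4A, RPS4B, RPS11A, RPS11B and RPS16B reached it at both times. By place in the subunit, 1 of 22 head genes and 6 of 34 body and platform genes had a coding summit at 2 h (21% of all genes), and 2 and 10 at 4 h (37.1% of all genes). Both sets lay under the share over all genes at each time, and the difference between them was not tested.

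Genes that act with the RPS genes had upstream Rap1 peaks in a smaller share than the RPS genes themselves. Of 14 assembly factor genes of the 40S subunit, an upstream summit was listed for 4, 9 and 10 in the 0, 2 and 4 h lists, and a coding summit for 0, 5 and 6. The upstream shares were 28.6, 64.3 and 71.4%, against 21.7, 28.2 and 37.6% of all genes, and the coding shares at 2 and 4 h were 35.7 and 42.9%, against 21 and 37.1%. NOB1, the nuclease of the last cleavage of the small rRNA, had an upstream peak throughout (13.3, 9.0 and 6.43). The highest coding peak of this list was in HRR25, encoding a casein kinase (8.71 at 2 h and 8.67 at 4 h). ASC1, the remaining core protein of the subunit, had an upstream peak in each list (12.1, 8.73 and 6.14) and a coding peak at 2 and 4 h (5.34 and 5.03).

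Of 12 genes for regulators of ribosomal protein and growth genes, 6, 6 and 7 had an upstream summit, and 0, 1 and 4 a coding summit. The coding shares of 8.33% at 2 h and 33.3% at 4 h were under the 21 and 37.1% of all genes, and the upstream shares of 50% at 0 and 2 h and 58.3% at 4 h were above the 21.7, 28.2 and 37.6%. RAP1 itself had a strong peak 128, 134 and 126 bp upstream (16.8, 12.9 and 8.64), nearer to its start than any RPS summit. IFH1 had one at 702, 700 and 659 bp (8.51, 7.81 and 7.43), whereas FHL1 had no upstream summit and a weak coding summit at 4 h (2.01).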

How the data were processed

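Rap1 ChIP-seq was deposited as 1 peak list per time. Per the file headers, the authors' peak caller was MACS2, version 2.0.10.20130712. No control library was used and the q cutoff was 0.05. The tag extension was set to 147 bp, and the fragment length used by the caller was 146 bp. Duplicates were reduced to 1 tag per position on each strand, and the local background could be taken from 10000 bp. The headers point to a single alignment file per list, and the sources used here do not say whether replicates were merged in it. The submitters' processing notes name Bowtie, SAMtools and sacCer3. Per the file headers, each peak has a height (a signal, the extended tags over the summit), a fold enrichment (the ratio of height to local background) and a -log10 q value, all deposited as the authors' caller gave them. Without a control library, uneven mapping or fragmentation is not corrected for.

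Genes came from the RefSeq R64 table, the assembly of sacCer3. All 56 members matched, coding spans include introns, and strand was read from the systematic name. The strongest upstream peak is that of highest fold. The local background was computed as (height + 1) / fold - 1, whose minimum in each list equals the mean of the genome, and scaled p values are Poisson tails at this background. Peaks overlapping a 0 h peak by 1 bp or more are not new. No test was run, since each time has 1 list. Members and lists were chosen with earlier results of these data known. Genes named are those without an upstream summit in a list, the 5 highest and 3 lowest promoter folds, the 3 nearest, farthest and most shifted summits, pairs with 1 bound copy, coding summits at 0 and 2 h and the 8 highest at 4 h, apart from results not reported here. Genes outside this rule, among them the other coding peaks at 4 h, neighbours, and members of the regulator and assembly lists, were named after their values were seen. Python 3.11.15, pandas 2.3.3, NumPy 2.4.6 and SciPy 1.17.1 were used, and the assignment was tested on simulated peaks. No sequence is given, because no genome or sequence table was used here.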

Additional observations from a re-analysis of the deposited data

How the results depend on the processing

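Of 71 alternative values of the 21 results, 55 stayed within 1.5 times the main count or, for medians, within the 95% interval of the median over genes. The number of RPS genes with an upstream summit was 10, 12 and 13 at 0, 2 and 4 h with a window of 250 bp. Coding peaks counted by any overlap of the interval gave 9, 16 and 21 genes, the 0 h genes being reached by the flank of a peak with its summit outside. With a fold of at least 3, coding summits were in 3 genes at 2 h and 6 at 4 h (5 and 6 new peaks). Among the 1212 highest peaks of each list by -log10 q they were in 3 genes at both times (4 and 3 new peaks). With summits at least 200 bp inside both ends they were in 4 and 5 genes. Scaling by kept or all tags, chosen after seeing the data, left 8 new coding peaks at 2 h and 9 at 4 h. The shares of all genes under these settings were not computed. The counts thus show only how the RPS results depend on the processing.

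No paired analysis was possible because the lists hold no values per replicate, so leaving out a replicate was also not run. The height ceiling of 292 limits comparison among strong promoter peaks, and unequal depth limits comparison of weak coding peaks between times.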
